A study of Mus musculus with 24 samples.

Results

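The 46 genes described here encode initiation and elongation factors of protein synthesis other than the eIF4F group, and the enzymes and binding proteins named after them. They were chosen by symbol and count: entries with a single symbol beginning with Eif or Eef and a count above 0 in every library, leaving out Eif4a1, Eif4a2, Eif4a3, Eif4e, Eif4g1, Eif4g2, Eif4g3, Eif4b and Eif4h. The 46 genes, 37 of the Eif family and 9 of the Eef family, are part of 11438 genes that met the same conditions on symbol and count. A further 8 Eif or Eef entries carry several symbols, so that reads of Eif2ak1, Eef2kmt, Eif1ad, Eif3m, Eif2a, Eif3j1, Eif3j2, Eif5b and, of the eIF4F group, Eif4a2 are joined with those of a neighbour or copy and were not analysed. Eef1a2, Eif2s3y and Eif4e1b had a count of 0 in at least 1 library and fell outside the rule.

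N organoids were grown from normal pancreatic duct of C57Bl/6J mice, and KP organoids from pancreatic ductal adenocarcinomas of mice with Pdx1-Cre, a Cre driven by a promoter of pancreatic progenitors, which switches on the allele Trp53 +/LSL-R172H. Both kinds of culture were kept without EGF and N-acetylcysteine and received DMSO vehicle or 10 nM CR-31 (CR1-31-b in the labels), a rocaglate that inhibits the RNA helicase eIF4A, for 1 h. After cycloheximide, which holds ribosomes on mRNA, each lysate was split. One share gave total mRNA, and a sucrose gradient of the rest gave the polysome-associated mRNA, the pool carrying at least 3 ribosomes. The 8 groups of 3 replicates make up 24 libraries from 12 lysates. The sources used here do not say which replicates came from separate animals, so p-values measure the spread between these samples only.

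Initiation starts when eIF2, loaded with GTP and initiator tRNA, joins the small ribosomal subunit with eIF1, eIF1A, eIF5 and the multi-subunit scaffold eIF3. The complex scans the mRNA leader that eIF4A has unwound until it meets the start codon. eIF2B reloads eIF2 with GTP, and stress-activated kinases block that step by phosphorylating eIF2 alpha. In elongation eEF1A delivers charged tRNAs, its exchange factors recharge it, and eEF2 moves the ribosome along. eIF5A eases the joining of difficult amino acids, and 4E-BPs hold eIF4E away from the cap. Many mRNAs of this machinery are known 5′ terminal oligopyrimidine (TOP) mRNAs, which begin with a C and a run of pyrimidines and whose translation follows mTOR signalling.

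Because 8 of the 46 mRNAs (Eef1a1, Eef1b2, Eef1d, Eef1g, Eef2, Eif3e, Eif3f and Eif3h) are on a list of known TOP mRNAs, the first bases of a few members are shown. Each line gives 25 bases from RefSeq on GRCm38.p6, from 10 bases before the annotated start base of the transcript to 14 bases after it, written 5′ to 3′ on the gene's strand. Capitals mark the pyrimidine run searched for, a C followed by at least 4 bases that are C or T, beginning within 5 bases of the start. Of the 4 known TOP mRNAs with a sequence, 2 hold such a run in the window, Eef1a1 and Eif3f. The other 2, Eef1b2 and Eef2, hold none in the window, and Eef2 is shown. The run of Eef1a1 begins 5 bases before the annotated start base. Whether a marked run is the one with which the mRNA begins was not tested. Eif2b5, Eif3l and Eif2s3x are further members with a run whose values are described below.

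Eef1a1 (chr9:78481710-78481734, minus strand): ctccgCCCTCTTCCCgagggtgggg
Eif3f (chr7:108934405-108934429, plus strand): tctaggCTCTCTCTCTTTCTCggca
Eef2 (chr10:81176621-81176645, plus strand): aaggccgggcgttgacgtcagcggt
Eif2b5 (chr16:20498807-20498831, plus strand): ctctttCTCTCCCTgcaactacacc
Eif3l (chr15:79075213-79075237, plus strand): gagttCTTCTTCCgctctctcccac
Eif2s3x (chrX:94212637-94212661, minus strand): gagcattttCCTTTTCTCTCCgagc

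A promoter sequence was at hand for 34 of the 46 members. The run began within 5 bases of the annotated start in 10 of them (29.4%), against 2074 of 8848 tested genes with a sequence (23.4%). The start base itself was a C followed by at least 4 pyrimidines in 2 members (5.88%), Eif3f and Eif2s3x, whose runs begin some bases earlier, and in 255 of all tested genes (2.88%). These matches describe letters near an annotated start, which can differ from the start used in these cells. A run, or the lack of one, therefore does not say how the mRNA itself begins.

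In total mRNA the members spanned from the most abundant mRNA of the organoids to mRNAs close to the limit of detection. Levels are compared here as deposited RPKM, read counts scaled to transcript length and library size. Eef1a1, which delivers charged tRNAs to the ribosome, averaged 12159 RPKM over the 12 total libraries and ranked 1 among the 11438 genes tested. Its RPKM in vehicle was 12848, 13253 and 18744 in N replicates 1, 2 and 3 and 10822, 12254 and 12995 in KP, so the groups overlapped. Eef2, the translocase, followed with a mean of 2031 RPKM and rank 68 among all genes. Eif1, which guards start codon choice, came next at 1232 RPKM over the 12 libraries. In KP vehicle alone it averaged 1012 RPKM, below Eef1g at 1204 RPKM and Eif5a at 1165 RPKM. Eef1g and Eif5a averaged 1019 and 992 RPKM and cannot be ranked against each other beyond the spread of their libraries. At the other end Eif4ebp3 and Eif5a2 averaged 1.02 RPKM each, and Eif4e3, a cap-binding homolog of eIF4E, 0.474 RPKM.

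Complexes with fixed subunit ratios were not even at the mRNA level. Among the 11 measured subunits of eIF3 in N vehicle, total mRNA ranged from 780.5 RPKM for Eif3f to 13.8 RPKM for Eif3a, the largest subunit. KP organoids had the same subunits at the ends, with 544 RPKM for Eif3f and 12.4 RPKM for Eif3a. The 5 subunits of eIF2B lay closer together. In N vehicle they ran from 9.46 RPKM for Eif2b3 to 37.5 RPKM for Eif2b2, and in KP vehicle from 10.1 RPKM for Eif2b3 to 57.7 RPKM for Eif2b5. RPKM here covers each full annotated transcript, and reads with several matches had been discarded.

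**Figure D1:**
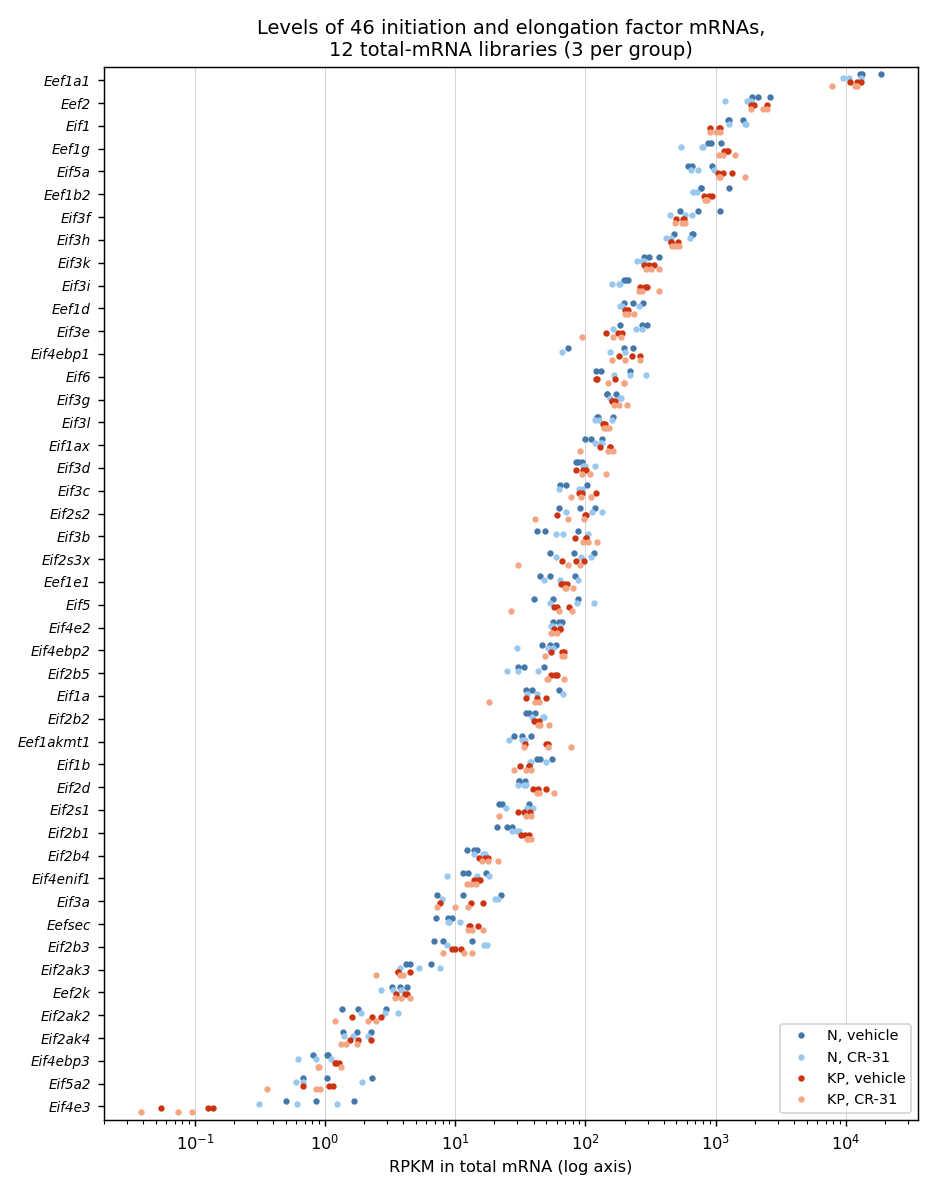
RPKM of the 46 members in total mRNA on a log axis, ordered by their mean over 12 libraries, with each point 1 library and the colours giving the 4 groups of 3 replicates. Eef1a1 averages 12159 RPKM and Eif4e3 0.474 RPKM, and for Eif4e3 every KP point lies left of every N point.

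Reads counted per library ranged from 47308461 to 267463046, and the members took 3.09% to 5.66% of them. Among 8 markers of duct and epithelium, the keratins Krt19, Krt8 and Krt18 were high in every library. The sum over the 8 was 4039 to 7376 RPKM in N and 2776 to 5179 RPKM in KP. Not all markers of this list were high. The duct marker Cftr was at most 1.83 RPKM in any library. Sox9 was at most 40.4 RPKM in N and 6.38 to 17.9 RPKM in KP. Of 6 acinar markers Cela1 alone exceeded 1 RPKM, and Ins1, Ins2, Gcg, Cpa1 and Col3a1 were at 0 RPKM throughout. The sum over 5 leukocyte markers was 3.62 to 19.7 RPKM in N, nearly all of it Cd68, and 1.53 to 25.1 RPKM in KP, where 1 vehicle polysome library held Lyz2 at 20 RPKM. Ptprc, the defining leukocyte marker, was at most 0.532 RPKM. The part of these differences in the results was not tested, and in bulk RNA fewer cells of a type and less RNA per cell cannot be told apart. The prefixes of the library names in the deposited header were never shared by N and KP libraries, so prefix and organoid type cannot be told apart. What the prefixes stand for is not given in the sources used here.

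The libraries of N replicate 3 stood apart and went against their labels. Across the tested genes, deviations from the mean of the N libraries correlated at r = 0.78 between its vehicle polysome and CR-31 total libraries and at r = 0.62 between its vehicle total and CR-31 polysome libraries. Libraries of the same fraction correlated at 0.34 and 0.41 in that replicate, against 0.81 to 0.86 in N replicates 1 and 2. Libraries of the same lysate correlated at 0.30 and 0.27, against 0.78 and 0.80 in N replicate 1 and 0.30 and 0.48 in N replicate 2. Whether labels of these libraries were exchanged was not tested. They were kept as labelled, so it is not certain what the ratios of N replicate 3 between treatments or fractions compare. The members took 5.50% and 5.66% of the reads in the vehicle total and CR-31 polysome libraries of N replicate 3 and 3.78% and 3.21% in the other pair. In KP the CR-31 total library of replicate 1 stood apart, with r = -0.06 to the polysome library of its own lysate. Several results that rest on these libraries are therefore given without them too. Others, such as the tallies over all 3 pairs of lysates, are given with them only.

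The comparison of KP with N organoids in vehicle asks which factors are carried differently by tumour cultures at rest. In polysome-associated mRNA 13 of the 46 members were higher and 5 lower in KP by edgeR's quasi-likelihood test with Benjamini-Hochberg adjustment over all 11438 genes and a threshold of 0.25, the study's own. Among all genes tested 20.9% were called higher and 22.2% lower. Without the vehicle lysate of N replicate 2 the counts fell to 7 higher (15.6% of all genes) and 2 lower (16.6%), without KP replicate 1 they were 9 (13%) and 2 (11.5%), and without KP replicate 2 they were 9 (14.9%) and 2 (14.9%). The median log2 fold change was 0.11 over the members and -0.03 over all genes. The members called higher were led by Eef1akmt1, Eif2b5, Eif5a, Eef1g, Eif2d, Eefsec and Eif3i, and those called lower were Eif4e3, Eif3a, Eif2ak3, Eif3e and Eif2ak2. Values per library are given below as CPM, counts scaled to library size with TMM factors, in the order of replicates 1, 2 and 3.

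Of the 5 subunits of eIF2B, the exchange factor that recycles eIF2, Eif2b1 and Eif2b5 were called higher in KP polysomes (20.9% of all genes). Eif2b5, the catalytic epsilon subunit, had 113, 84.6 and 96.2 CPM in N polysomes and 182, 201 and 171 CPM in KP polysomes. Every KP library lay above every N library, a log2 fold change of 0.92 (SE 0.20, edgeR adjusted p = 0.014). In total mRNA Eif2b5 read 129, 98.8 and 93.6 CPM in N and 164, 168 and 155 CPM in KP, again without overlap, for a log2 fold change of 0.60 (SE 0.22, adjusted p = 0.12). Eif2b1, the alpha subunit, was also called higher in polysome-associated mRNA (log2 0.40, SE 0.19, adjusted p = 0.17), where its groups overlapped, and in total mRNA (log2 0.47, SE 0.15, adjusted p = 0.078), where they did not. Its total mRNA was 57.7, 57.3 and 50.4 CPM in N and 78.9, 73.2 and 77 CPM in KP. Eif2b2, Eif2b3 and Eif2b4 did not pass in either fraction, with log2 fold changes between -0.06 and 0.35.

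Eif2d, which can place tRNA in the ribosome without eIF2, rose from 58, 61.6 and 85 CPM in N polysomes to 128, 113 and 105 CPM in KP polysomes (log2 0.76, SE 0.22, edgeR adjusted p = 0.036). An exon stretch of 78 bases is shared with Rassf5 on the opposite strand, where reads cannot be assigned to either gene without strand. The eIF2 subunits themselves, Eif2s1, Eif2s2 and Eif2s3x, did not pass, with log2 fold changes of 0.29, 0.04 and -0.22 in polysome-associated mRNA. All 3 measured eIF2 alpha kinases had lower values in KP polysomes, where the median over all genes was -0.03. Eif2ak3 (PERK, the kinase of endoplasmic reticulum stress) and Eif2ak2 (PKR, the kinase activated by double-stranded RNA) passed the test. Among all genes 22.2% were called lower. Eif2ak3 read 22.1, 41.8 and 17.7 CPM in N polysomes and 13.4, 16.6 and 16 CPM in KP polysomes (log2 -0.83, SE 0.34, adjusted p = 0.12). Eif2ak2 fell from 29.4, 25.3 and 25.3 CPM to 20, 16.9 and 21 CPM (log2 -0.47, SE 0.25, adjusted p = 0.22), and shares 174 exon bases with Gm26637 on the opposite strand. In total mRNA none of the 3 kinases passed, and their log2 fold changes ran from -0.41 to 0.08.

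Subunits of eIF3, the scaffold that ties the small subunit to the mRNA, were called in both directions. Of the 11, Eif3b, Eif3g, Eif3i and Eif3k were called higher (20.9% of all genes) and Eif3a and Eif3e lower (22.2% of all genes) in KP polysomes. Eif3i had 206, 177 and 297 CPM in N polysomes and 404, 492 and 331 CPM in KP polysomes (log2 0.85, SE 0.27, edgeR adjusted p = 0.051). Its N replicate 3 was the highest of the N libraries and still below each KP library. Eif3a, the subunit on which the rest of the complex assembles, read 288, 192 and 216 CPM in N and 154, 92.6 and 152 CPM in KP (log2 -0.81, SE 0.30, adjusted p = 0.090). In total mRNA Eif3a did not pass and its groups overlapped, with 123, 43.4 and 70.9 CPM in N and 90.2, 44.3 and 75.8 CPM in KP. Eif3b, the subunit that contacts mRNA and the small ribosomal subunit, was higher in total mRNA by log2 0.65 (SE 0.26, adjusted p = 0.16), from 276, 165 and 152 CPM to 317, 338 and 273 CPM, with N replicate 1 inside the range of KP. Eif3e and Eif3f, both TOP mRNAs, were called lower in total mRNA by log2 -0.62 and -0.58, with overlapping groups.

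In polysome-associated mRNA a cap-binding homolog had the lowest and an eIF4E-binding protein the highest log2 fold change of the members. Eif4e3, an atypical cap-binding homolog, had 3.86, 1.97 and 0.95 CPM in N polysomes and 0.391, 0.189 and 0.353 CPM in KP polysomes. That is a log2 fold change of -2.85 (SE 0.58, edgeR adjusted p = 0.011). Total mRNA gave 4.41, 2.44 and 1.52 CPM in N and 0.34, 0.393 and 0.154 CPM in KP (log2 -3.24, SE 0.64, adjusted p = 0.012). The counts behind these values are small, down to 11 in a library, and an exon stretch of 156 bases shared with Gm20696 on the same strand cannot be assigned to 1 gene. Eif4ebp1, the 4E-BP that mTOR controls most directly, read 265, 77.4 and 144 CPM in N polysomes and 381, 449.7 and 303 CPM in KP polysomes (log2 1.22, SE 0.49, adjusted p = 0.11). The N cultures differed among themselves as much as the organoid types did, and N replicate 2 was low in both fractions and treatments. Eif4e2, Eif4ebp2, Eif4ebp3 and Eif4enif1 did not pass in either fraction.

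Eif5a, the hypusine-bearing factor, was higher by 2.19-fold in KP polysomes, with 1287, 703 and 1115 CPM in N and 2499.7, 2357 and 1929.6 CPM in KP (log2 1.13, SE 0.26, edgeR adjusted p = 0.016). In total mRNA it was higher by 1.54-fold, from 1162, 819.6 and 935 CPM to 1651, 1495 and 1353 CPM (adjusted p = 0.14). No KP library came down to an N library in either fraction. Its paralog Eif5a2, with 73.2% identical bases over the aligned coding sequence, went the other way without passing (log2 -0.65, SE 0.49, adjusted p = 0.38 in polysomes). Eif6, which keeps the large subunit apart until it is ready, did not pass (log2 0.16, SE 0.38).

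Of the 5 start-site factors 1 was called higher in polysome-associated mRNA (20.9% of all genes) and 2 lower in total mRNA (15.4% of all genes), and the difference between the fractions passed for none. Eif1ax, the X-linked eIF1A, was called higher in KP polysomes (log2 0.62, SE 0.23, edgeR adjusted p = 0.088). Eif1 was called lower in total mRNA, from 2168, 1785 and 1919 CPM in N to 1452, 1279.9 and 1478 CPM in KP (log2 -0.48, SE 0.16, adjusted p = 0.093). Its close copy Eif1b, 81.1% identical in coding sequence, was called lower in total mRNA too, from 40.8, 58.5 and 49.8 CPM to 36.1, 32.5 and 37.5 CPM (log2 -0.49, SE 0.21, adjusted p = 0.18). In polysome-associated mRNA neither passed, with log2 fold changes of -0.18 for Eif1 and -0.05 for Eif1b and overlapping groups.

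Among elongation factors Eef1g and Eefsec were called higher in polysome-associated mRNA. Eef1g, the gamma subunit of the exchange complex for eEF1A, read 1550.2, 1603 and 1408 CPM in N and 2233, 3141 and 2730.1 CPM in KP (log2 0.83, SE 0.22, edgeR adjusted p = 0.029). In total mRNA it did not pass, and N replicate 3, at 2058 CPM, lay among the KP libraries at 2023, 2205 and 2001 CPM. Eefsec, the elongation factor that delivers selenocysteine tRNA, was higher in both fractions, by log2 0.71 (SE 0.21, adjusted p = 0.042) in polysomes and log2 0.65 (SE 0.20, adjusted p = 0.068) in total mRNA. An exon stretch of 308 bases is shared with Gm44264 on the opposite strand. The polysome libraries of Eefsec read 20.6, 24.8 and 34.1 CPM in N and 37.9, 50.4 and 41.7 CPM in KP. Eef1akmt1, an enzyme that methylates a lysine of eEF1A, was also called higher, with 29, 24.1 and 34.4 CPM in N polysomes and 72.6, 46.8 and 59 CPM in KP polysomes (log2 1.03, SE 0.22, adjusted p = 0.013). The most abundant members did not pass: Eef1a1 had a log2 fold change of -0.31 (SE 0.29, adjusted p = 0.48) and Eef2 of 0.49 (SE 0.31, adjusted p = 0.29) in polysomes.

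**Figure D2:**
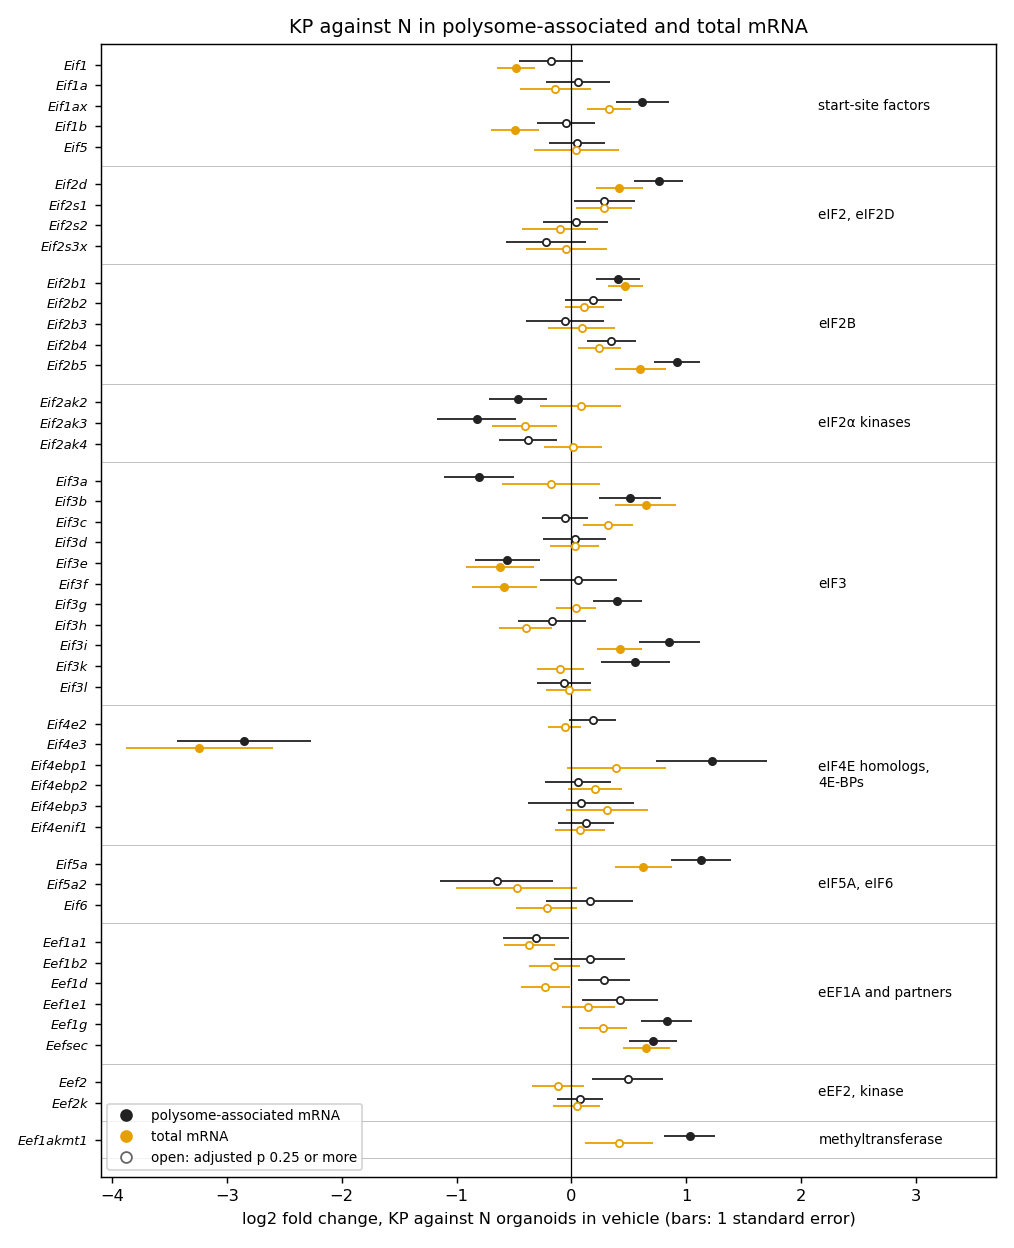
Log2 fold change of KP against N organoids in vehicle for each member, grouped by role, in polysome-associated mRNA (black) and total mRNA (orange), with bars of 1 standard error and filled points where the edgeR adjusted p was under 0.25. Eif4e3 lies far to the left in both fractions at -2.85 and -3.24, and the 3 eIF2 alpha kinases lie left of 0 in polysome-associated mRNA.

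In total mRNA 7 members were called higher and 5 lower, against 13.1% and 15.4% of all genes tested. Of the 18 members called in polysome-associated mRNA and the 12 called in total mRNA, 9 were called in the same direction in both: Eefsec, Eif2b1, Eif2b5, Eif2d, Eif3b, Eif3e, Eif3i, Eif4e3 and Eif5a. Both fractions come from the same lysates. The share of all genes called in the same direction in both is not given here. The overlap of 9 therefore cannot be read as a trait of the members.

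Leaving out both lysates of N replicate 3 left 17 of the 18 polysome calls and 4 of the 12 total calls in place. In polysome-associated mRNA 20 members were then higher and 7 lower, with 26.3% of all genes called higher and 26.3% lower. In total mRNA 2 were higher and 2 lower, with 8.25% and 10.7% of all genes called. The 4 total calls kept were Eefsec, Eif1, Eif2b1 and Eif4e3. Eif2b5, Eif5a and Eif3b no longer passed in total mRNA, at log2 0.51, 0.60 and 0.49 (edgeR adjusted p = 0.28, 0.31 and 0.41), while in polysomes Eif5a was at log2 1.19 and Eif2b5 at 0.91.

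**Figure D3:**
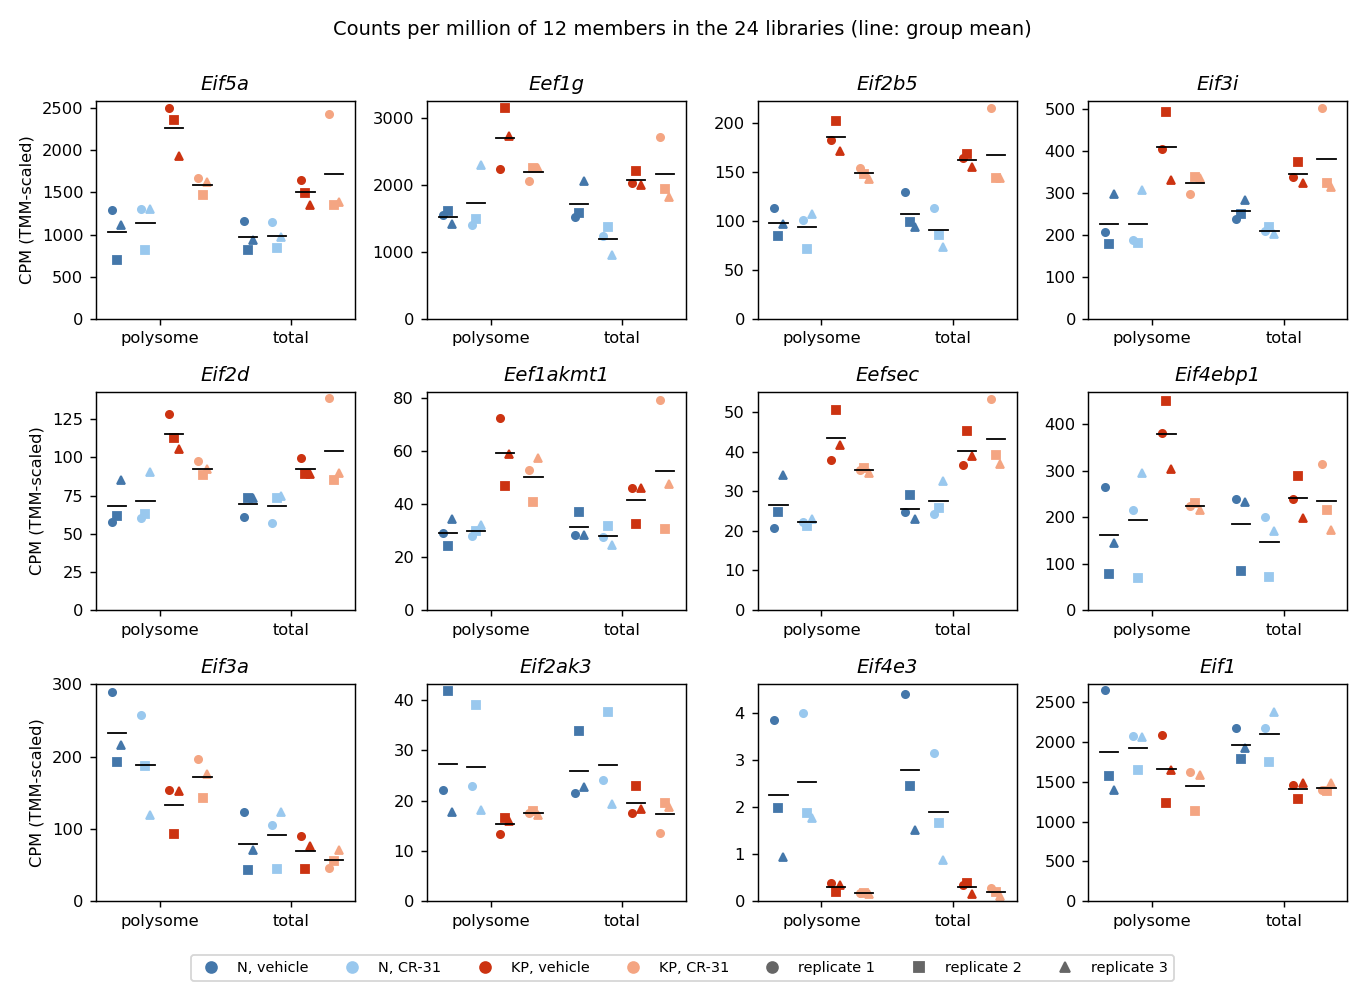
TMM-scaled CPM of 12 members in each of the 24 libraries, with polysome-associated libraries left and total libraries right in each panel, colours for the 4 kinds of culture, marker shapes for replicate numbers and a line at each group mean. For Eif5a the KP vehicle polysome libraries sit between 1929.6 and 2499.7 CPM, above all N libraries, and the KP CR-31 total library of replicate 1 reads 2432 CPM where the other KP CR-31 total libraries read 1351 and 1387 CPM.

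KP and N organoids were compared again after 1 h of CR-31, in lysates of their own. In polysome-associated mRNA 6 members were called higher (11.2% of all genes) and Eif4e3 was called lower (13.8% of all genes). The 6 were Eef1akmt1, Eif2b5, Eefsec, Eif2b1, Eif2s1 and Eif1ax. Eif4e3 read 3.99, 1.86 and 1.77 CPM in N and 0.176, 0.18 and 0.164 CPM in KP polysomes (log2 -3.87, SE 0.61, edgeR adjusted p = 0.0078). Eif5a, at 1304, 812 and 1307 CPM in N and 1671, 1475 and 1627 CPM in KP, did not pass (log2 0.48, SE 0.26, adjusted p = 0.30), although its groups did not overlap. Without N replicate 3 the polysome counts were 10 higher (16% of all genes) and 2 lower (18.7% of all genes), and without KP replicate 1 they were 1 (3.30%) and 1 (4.74%). Without KP replicate 3 there were 2 higher (6.13%), and without the CR-31 lysate of N replicate 1 there were 5 lower (14.5%). In total mRNA 12 members were called higher (18.9% of all genes) and 4 lower (21% of all genes). Without the lysate of KP CR-31 replicate 1 the total counts were 5 higher (8.80% of all genes) and 2 lower (9.76%), so calls were fewer among all genes too.

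The effect of CR-31 itself was not large enough to pass the test for any member when the replicates were taken as unpaired. In polysome-associated mRNA 0 of the 46 members were called in KP and 0 in N, as were 0% of all genes in either by edgeR's quasi-likelihood test, and DESeq2 also called 0 members. At an unadjusted p under 0.05 there were 0 members in KP (3.55% of all genes) and 0 in N (0.420% of all genes). In total mRNA 0 members were called in KP and 0 in N (0% of all genes in each). At an unadjusted p under 0.05 the total counts were 0 members in KP (0.953% of all genes) and 4 in N (2.60% of all genes). Those 4 were Eef1a1, Eef1b2, Eef1g and Eef2, all known TOP mRNAs, with log2 fold changes between -0.57 and -0.52. The CR-31 total library of N replicate 3 was the lowest of the 6 total libraries of N for Eef1a1, Eef1g and Eef2. It read 19142, 949.8 and 4112 CPM in that order. The vehicle total library of the same replicate was the highest of the 6 for Eef1a1, Eef1b2, Eef1g and Eef2. It read 40371, 2966, 2058 and 9764 CPM in that order. Without N replicate 3 none of the 46 members was at an unadjusted p under 0.05 in N total mRNA.

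In KP polysomes the smallest unadjusted p belonged to Eif5a, which read 2499.7, 2357 and 1929.6 CPM in vehicle and 1671, 1475 and 1627 CPM in CR-31. All CR-31 libraries lay below all vehicle libraries, with a log2 fold change of -0.51 (SE 0.26, edgeR adjusted p = 1.0). Eif2ak2 went the other way, from 20, 16.9 and 21 CPM to 27, 28.8 and 22.6 CPM (log2 0.44, SE 0.25, adjusted p = 1.0). Eef2k, the calcium-dependent kinase that inhibits eEF2, read 28.7, 30.7 and 29.5 CPM in vehicle and 23.2, 23.3 and 23.6 CPM in CR-31 (log2 -0.34, SE 0.20, adjusted p = 1.0). The KP vehicle libraries in these values are those in which Eif5a was above and Eif2ak2 below N, so the comparisons share samples. In N polysomes the smallest unadjusted p belonged to Eif3c, Eefsec and Eif3a, with log2 fold changes of -0.29, -0.26 and -0.30 and overlapping groups (edgeR adjusted p = 1.0 for each). Without N replicate 3 they were -0.20, -0.06 and -0.10 (adjusted p = 1.0 for each). For Eif3c, a core subunit of eIF3, the values were 326, 254 and 271 CPM in vehicle and 281, 223 and 192 CPM in CR-31.

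Vehicle and CR-31 lysates with the same replicate number varied together within each kind of organoid. With the number as a block the CR-31 comparison in KP polysomes changed. By edgeR with the block 0 members were called higher (8.30% of all genes) and 5 lower (11.1% of all genes). The 5 were Eif5a (log2 -0.50, SE 0.15, adjusted p = 0.19), Eif4ebp1 (log2 -0.74, SE 0.25, adjusted p = 0.19), Eif3k (log2 -0.38, SE 0.15, adjusted p = 0.22), Eif2d (log2 -0.31, SE 0.13, adjusted p = 0.23) and Eif4e3 (log2 -0.81, SE 0.35, adjusted p = 0.25). Between paired lysates Eif4ebp1 changed by log2 -0.76, -0.96 and -0.49 in KP replicates 1, 2 and 3, and Eif5a by -0.58, -0.68 and -0.25. In N the same ratios were -0.30, -0.15 and 1.04 for Eif4ebp1 and 0.02, 0.21 and 0.23 for Eif5a. The value of 1.04 comes from N replicate 3.

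With the block and without N replicate 3, an alternative chosen after seeing the data, 8 members were called higher (25.4% of all genes) and 20 lower (29.5% of all genes) in KP polysomes. In N 3 were called (15% of all genes). The fold changes in KP hardly moved, as the value of -0.50 for Eif5a shows, since the left-out libraries are N libraries. All groups share 1 estimate of the spread, so leaving out N libraries also changes the p-values in KP. Among the 28 were Eif4ebp1 (log2 -0.74, adjusted p = 0.0011), Eif5a (adjusted p = 0.0062), Eef2 (log2 -0.39, adjusted p = 0.012), Eif2ak2 (log2 0.43, adjusted p = 0.013) and Eif3a (log2 0.39, adjusted p = 0.018). The 3 in N were Eif6, Eif2b3 and Eif2b2, all higher, at log2 0.62, 0.43 and 0.27. The difference of the CR-31 effect between KP and N was called for 0 members in either fraction by edgeR without the block (0% of all genes). At an unadjusted p under 0.05 there were also 0 members, against 2.26% of all genes in polysome-associated and 0.131% in total mRNA. With the block and without N replicate 3 it was called for 2 members higher (11.1% of all genes) and 11 lower (15.9% of all genes) in polysome-associated mRNA, among them Eif6 (log2 -0.94, adjusted p = 0.093) and Eif5a (log2 -0.62, adjusted p = 0.097).

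Across the 46 members the median log2 ratio of CR-31 to vehicle in KP polysomes was -0.06, -0.15 and -0.06 in replicates 1, 2 and 3, against -0.01, -0.02 and -0.01 over all genes. In N polysomes the medians were -0.09, 0.04 and 0.15 over the members and close to 0 over all genes. In KP polysomes 20 members were lower and 9 higher in all 3 pairs of lysates, and in N polysomes 4 were lower and 4 higher in all 3. Over all genes 30.5% were lower and 28.9% higher in all 3 pairs in KP, and 11.4% lower and 9.26% higher in N. In total mRNA 19 members were lower and 7 higher in all 3 pairs in N (22.95% and 20.8% of all genes), and 6 were lower and 3 higher in KP (11.6% and 15.6% of all genes). The 8 known TOP mRNAs had a median log2 fold change of -0.17 in KP polysomes in the unpaired fit, with 3 positive (47.6% of all genes). By pair of lysates 5, 2 and 2 of them were above 0 in KP replicates 1, 2 and 3, with medians of 0.12, -0.31 and -0.17. In N polysomes it was 0.20 with 8 positive (50.4% of all genes), and without N replicate 3 it was -0.06 with 2 positive (50.2% of all genes). By pair of lysates 0, 5 and 8 of them were above 0 in N replicates 1, 2 and 3, with medians of -0.15, 0.01 and 0.61. In total mRNA of N all 8 were lower in each of the 3 pairs, with medians of -0.27, -0.15 and -1.0. In total mRNA of KP 6, 1 and 0 of them were above 0 in replicates 1, 2 and 3. The medians there were 0.415, -0.088 and -0.10, and replicate 1 holds the CR-31 total library that stood apart. For Eef2 the polysome ratios in N were -0.04, -0.18 and 0.89.

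**Figure D4:**
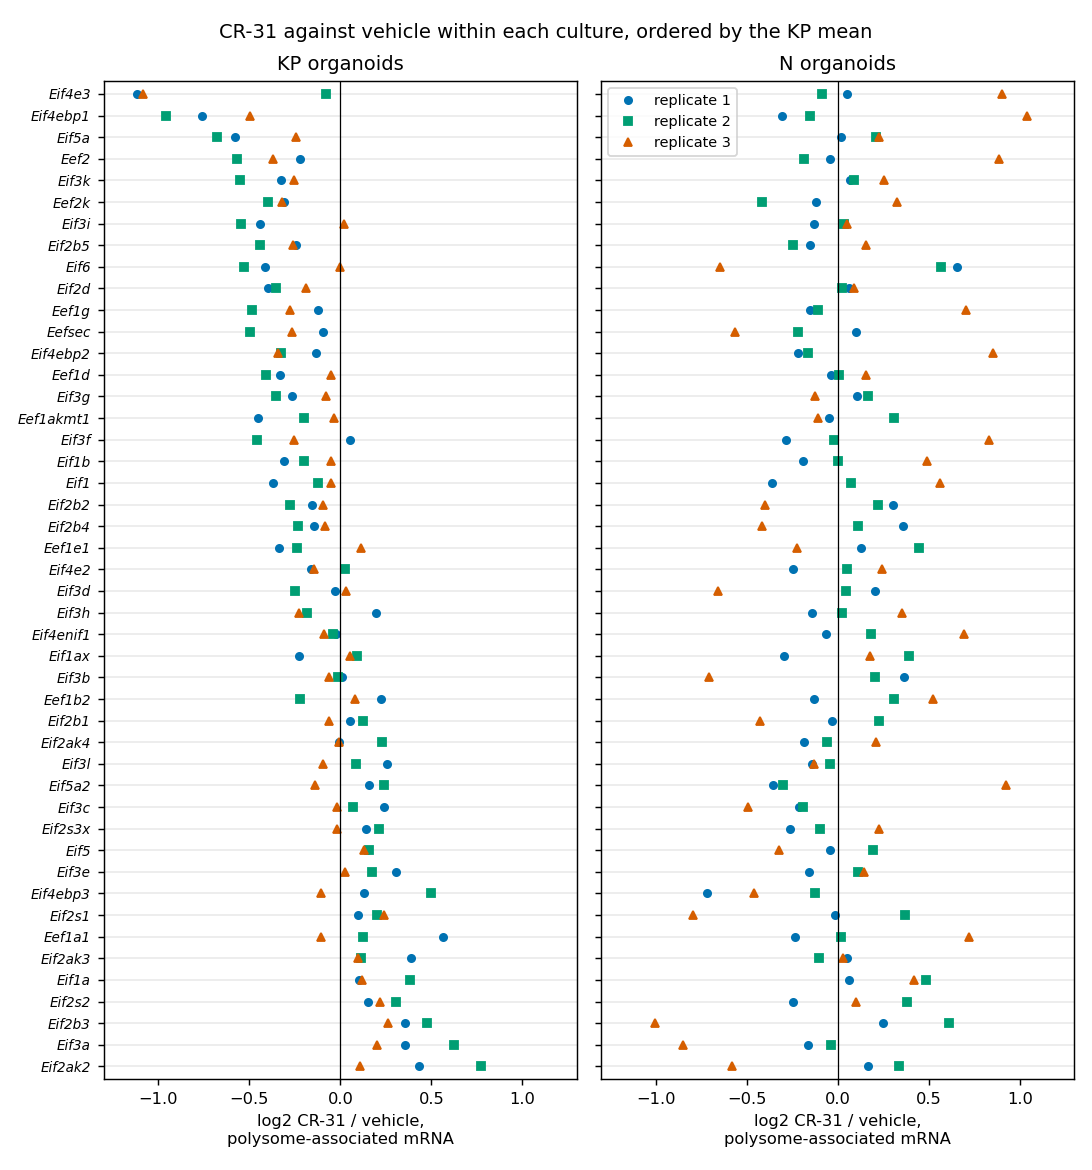
Log2 ratio of CR-31 to vehicle in polysome-associated mRNA for each of the 46 members for each pair of lysates, KP left and N right, with marker shapes for replicates 1, 2 and 3 and members ordered by their KP mean. In KP the 3 points of Eif4ebp1 and Eif5a all lie below 0, and in N the points of replicate 3 for Eif4ebp1 and Eif2b3 lie far from the other 2, at 1.04 and -1.0, while those of Eif2d and Eif3l lie close together.

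Translational efficiency, the change in polysome-associated mRNA beyond that in total mRNA, was tested as an interaction term in 1 fit over both fractions, blocked by lysate. Between KP and N in vehicle 0 members were called (0% of all genes) by edgeR, with 2 members at an unadjusted p under 0.05 (11.3% of all genes). These were Eif4ebp1 (log2 0.81, SE 0.28, adjusted p = 0.43) and Eif3k (log2 0.61, SE 0.27, adjusted p = 0.43), followed by Eif5a (log2 0.49, SE 0.23, adjusted p = 0.44). Eif3k, a small outer subunit of eIF3, read 226, 255 and 382 CPM in N polysomes and 325, 499 and 445 CPM in KP polysomes, with 248, 299 and 375 CPM and 255, 319 and 289 CPM in total mRNA. Regression of polysome-associated on total mRNA called 3 members higher (5.26% of all genes), Eef1akmt1, Eef1g and Eif4ebp1, and Eif3a lower (5.37% of all genes). Without N replicate 3 the interaction called 15 members higher (20% of all genes) and 5 lower (15.8% of all genes), so this result rests on those libraries. The 5 lower were Eif2ak2, Eif2ak3, Eif2ak4, Eif3a and Eif4ebp2, which takes in all 3 measured eIF2 alpha kinases, at log2 -0.64, -0.55 and -0.60 (adjusted p = 0.24, 0.13 and 0.090). For CR-31 against vehicle 0 members were called in translational efficiency in KP and 0 in N, with 2 members at an unadjusted p under 0.05 in each (5.48% of all genes in KP and 2.87% in N).

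Within a group, the ratio of polysome-associated to total mRNA of the same lysate describes how much of an mRNA sits on 3 or more ribosomes relative to other mRNAs. In N vehicle 3 members were called higher (8.83% of all genes) and 4 lower (6.36%) in polysome-associated mRNA by edgeR. In N with CR-31 the counts were 3 higher (7.81% of all genes) and 3 lower (10.7%). In KP vehicle 10 were higher (14.2% of all genes) and 6 lower (13.3%), and in KP with CR-31 8 were higher (13.7%) and 3 lower (6.50%). Leaving out lysates moved the total of called members between 2 and 16 in N vehicle, 0 and 14 in N with CR-31, 0 and 24 in KP vehicle and 0 and 18 in KP with CR-31. The share of all genes called moved between 1.75% and 35.7%, 3.31% and 30.2%, 0% and 47.85%, and 2.38% and 39.7% in the same order. Eif3a, Eif2ak2 and Eif3l were called in the same direction in all 4 groups. The share of all genes called so is not given here, so their number has no background to be read against.

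Eif3a mRNA was enriched on polysomes by log2 1.61 in N vehicle, 1.04 in N with CR-31, 0.85 in KP vehicle and 1.55 in KP with CR-31 (edgeR adjusted p = 0.018, 0.10, 0.13 and 0.010). By lysate the ratios were 1.16, 2.11 and 1.56 in N vehicle and 0.66, 0.97 and 0.92 in KP vehicle. Eif2ak2 followed closely, at 1.06, 1.88 and 1.39 in N vehicle and 0.59, 1.02 and 0.85 in KP vehicle. In N with CR-31, replicates 1 and 2 read 1.23 and 1.98 for Eif3a while replicate 3 read -0.11, and in KP with CR-31 replicate 1 read 2.12 against 1.29 and 1.25. Eif3l, an outer subunit of eIF3, was lower on polysomes in every lysate, with ratios between -0.59 and -0.28. Eif2b1 was lower on polysomes in 11 of the 12 lysates, all but N vehicle replicate 3. Over 18 leave-outs of lysates Eif3a kept its call in 18 in N vehicle, 14 in N with CR-31, 13 in KP vehicle and 17 in KP with CR-31, and so did Eif2ak2. Eif3l kept it in 14, 14, 14 and 15. Every lost call fell where a lysate of that group was left out. The direction never changed in these leave-outs, with log2 ratios between 0.58 and 1.83 for Eif3a and between -0.54 and -0.33 for Eif3l.

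**Figure D5:**
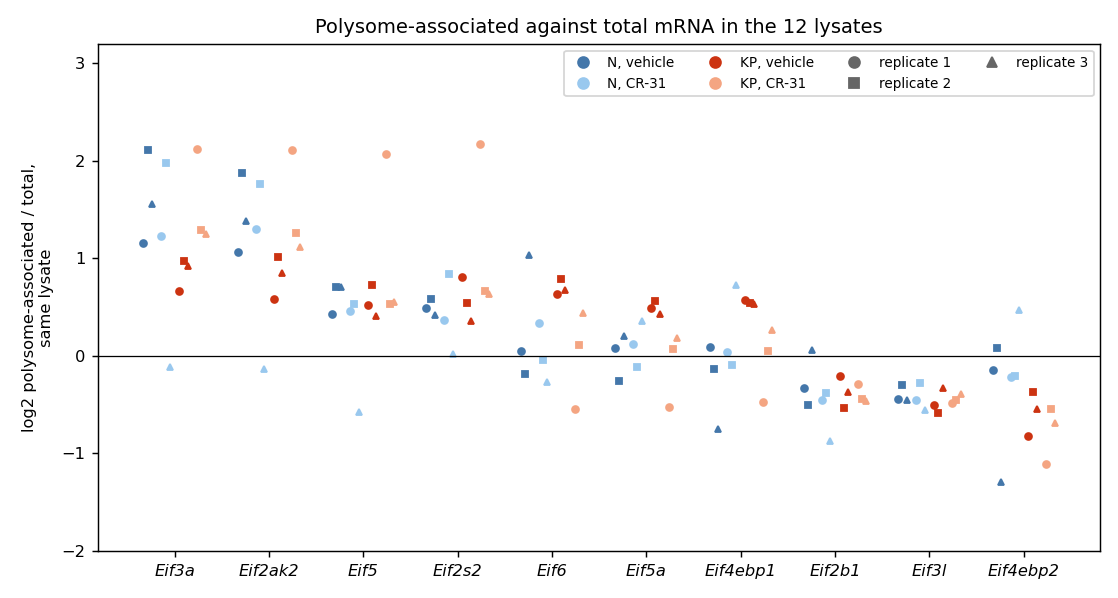
Log2 ratio of polysome-associated to total mRNA in each of the 12 lysates for 10 members, with colours for the 4 groups and marker shapes for replicates. Eif3a and Eif2ak2 lie above 0 in every lysate but N CR-31 replicate 3, and Eif3l lies between -0.59 and -0.28 throughout.

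The gamma subunit of eIF2 is encoded on the X chromosome by Eif2s3x, a member, and on the Y chromosome by Eif2s3y, which is not a member because of its zero counts. Their coding sequences are 86.3% identical, and reads matching both had been discarded. Eif2s3y had 2819 to 6572 counts in the 4 libraries of N replicate 3 and 1098 to 7232 counts in the 8 libraries of KP replicates 1 and 2. In the other 12 libraries, those of N replicates 1 and 2 and KP replicate 3, it had 0 to 21 counts. Eif2s3x in total mRNA of vehicle cultures was 116, 82.3 and 53.9 RPKM in N replicates 1, 2 and 3 and 84.9, 65.6 and 98.1 RPKM in KP. In polysome-associated mRNA it was 143, 128 and 50.6 RPKM in N and 82.6, 58.4 and 102 RPKM in KP. Within each kind of organoid the replicates with Eif2s3y counts thus had the lower Eif2s3x in these vehicle libraries. The part of this in the KP against N difference of Eif2s3x, which did not pass in either fraction, was not tested. Replicates with Eif2s3y counts are unevenly split between N and KP in every comparison of the organoid types. The part of that split in other results, such as the call of X-linked Eif1ax, was not tested either.

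Other genes of the pathway, from lists of eIF4F and its helpers, termination and recycling factors, poly(A)-binding proteins, hypusine and diphthamide enzymes and eIF2 alpha phosphatase subunits, were read in the same fits. Of 27 that were tested, 3 were higher and 1 lower in KP polysomes in vehicle, against 20.9% and 22.2% of all genes, and 3 were higher and 2 lower in total mRNA, against 13.1% and 15.4%. Dohh, the hydroxylase that completes hypusine on eIF5A, was called higher in both fractions, by log2 1.35 (SE 0.23, edgeR adjusted p = 0.0053) in polysomes and 0.51 (SE 0.20, adjusted p = 0.13) in total mRNA. Pelo, a ribosome rescue factor, was higher in both (log2 0.59 and 0.49), and Pabpc1, the main cytoplasmic poly(A)-binding protein and a TOP mRNA, was lower in total mRNA (log2 -0.54, SE 0.23, adjusted p = 0.17). CR-31 called none of the 27 in any comparison with vehicle by edgeR without the block.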

How the data were processed

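Polysome-associated and total mRNA of 12 lysates was sequenced, giving 24 libraries. The authors aligned reads with HISAT2, handled them with SAMtools, discarded multi-mapped reads and made gene counts and RPKM over full transcripts. The submitters' notes name hg38 and GRCh38 although the genes are mouse. The deposited table holds counts, used for all tests, and RPKM, used for levels. Testing covered genes counted in all libraries, with edgeR 4.0.16 (quasi-likelihood, TMM, Benjamini-Hochberg over 11438 genes, threshold 0.25). The tests took each fraction in 1 fit over its 4 groups, and translational efficiency in 1 fit over all libraries. DESeq2 1.42.0 (in R 4.3.3) and the alternatives of the closing section were also run. The fits were run on simulated counts as a check of the code, which does not show how well they suit these libraries. Log ratios used a prior count of 0.5. A further allele of the KP mice is not reported here.

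Deviations of same-numbered vehicle and CR-31 libraries correlated at 0.56 to 0.90 in N and 0.45 to 0.81 in KP, each above 0.1. Between N and KP they did so at -0.17 to 0.28, so the block was set within each kind of organoid. Values per library were given for the 8 smallest adjusted p in each fraction of KP against N, the 3 smallest p for CR-31 in each kind of organoid and for translational efficiency, and the 3 highest levels. Those of Eif2ak3, Eif3l, Eif2b1 and Eif2s3x, and of Eif3a, Eif2ak2, Eef1g and Eif4ebp1 in other comparisons, were added after their values were seen. The members and lists were chosen with earlier results of these data known. Promoter sequences are RefSeq's on GRCm38.p6.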

Additional observations from a re-analysis of the deposited data

Results flagged for a closer look

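Eif2s3y, the Y-linked copy of the eIF2 gamma gene, is outside the members because of its zero counts, and was used in no comparison. It reached 7232 counts in a library, within a range of 1098 to 7232 counts in KP replicates 1 and 2 and of 2819 to 6572 counts in N replicate 3, and had at most 21 counts in every other library. It is raised here as a signal in data outside the main measurement, and both kinds of organoid hold replicates with and without it.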

How the results depend on the processing

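Of 25 values given for named members, 603 recomputations under 27 settings all kept their sign. In 559 the side of the threshold of 0.25 was kept, and in 11 a call was gained. In 33 a call was lost, each a total mRNA value of KP against N in vehicle with lysates left out. The stricter threshold of 0.05 is not part of this tally, and further calls were lost there, as the counts below show. With the replicate block, members lower in KP polysomes in vehicle went from 5 to 8, and with CR-31 members higher went from 6 to 15 and lower from 1 to 10. In total mRNA the block gave 11 higher and 8 lower in vehicle and 12 lower with CR-31. In KP against N the block takes the spread between cultures out of the error by construction, so its p-values are too small there, and it called 56.4% to 68.8% of all genes. The block gave 5 members for CR-31 in KP polysomes and changed no other count by over 1.5 times. With the block and without N replicate 3, the counts were 23 higher and 12 lower in KP polysomes in vehicle, 23 and 13 with CR-31, 12 higher in total mRNA in vehicle, 19 higher and 9 lower with CR-31, 28 for CR-31 in KP polysomes, 3 in N polysomes and 13 for their difference, where 80.8%, 73.9%, 53.9%, 62.7%, 54.9%, 15% and 27% of all genes were called in the 7 comparisons in that order. At an adjusted p under 0.05 there were 6 higher and 1 lower in KP polysomes in vehicle, 0 higher with CR-31, 0 higher and 1 lower in total mRNA in vehicle, and 3 higher and 2 lower with CR-31, where 15.2%, 6.02%, 8.99% and 10.6% of all genes were called. Polysome association then held 2 members in N vehicle, 0 in KP vehicle, 0 in N with CR-31 and 4 in KP with CR-31 (3.58%, 1.12%, 1.18% and 7.13% of all genes). Regression gave 4 members for translational efficiency, and no filter on low counts gave 4 for polysome association in N vehicle (8.15% of all genes). The cause of these changes was not tested.

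Leaving out lysates gave 7 to 20 higher (13% to 26.3% of all genes) and 2 to 7 lower (11.5% to 26.3%) in KP polysomes in vehicle, and 1 to 10 higher (3.30% to 16%) and 1 to 5 lower (4.74% to 18.7%) with CR-31. In total mRNA it gave 1 to 8 higher (6.42% to 17.75%) and 1 to 8 lower (7.66% to 19.9%) in vehicle, and 3 to 15 higher (7.22% to 22.5%) and 2 to 7 lower (8.44% to 23.6%) with CR-31. Translational efficiency of KP against N ranged from 0 to 20 members (0% to 35.8% of all genes), and polysome association from 2 to 16 (1.75% to 35.7%) in N vehicle, 0 to 24 (0% to 47.85%) in KP vehicle, 0 to 14 (3.31% to 30.2%) in N with CR-31 and 0 to 18 (2.38% to 39.7%) in KP with CR-31. For CR-31 against vehicle every leave-out without the block gave 0. With 3 replicates a group and counts down to 11, changes of Eif4e3 are the least precise.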
